A study of Mus musculus with 5 samples.

Results

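Mechanosensitive ion channels open when the membrane is stretched, swollen or sheared, and the levels of 10 of their genes are given here for mesenchymal stem cells from mouse bone marrow (BMSCs) held under negative pressure. Such cells are stromal cells that grow attached to plastic. The members were taken by symbol from the 55401 genes of the deposited table: Piezo1, Piezo2, Trpv2, Trpv4, Trpm7, Trpc1, Pkd1, Pkd2, Tmem63a and Tmem63b. All 10 were found, each with 1 Ensembl gene ID. Wild-type cells were cultured for 72 h, and continuous pressures of -80, -120, -160 or -200 mmHg were held for 48 h, with a culture labelled 0 mmHg as the control. The strain, sex and age of the donor mice are not given in the sources used here. Each of the 5 conditions had 1 RNA-seq library, so differences lack a replicate check and no p-value is given.

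Piezo channels are large membrane proteins that sense tension directly and let calcium in, and Piezo1 in the osteoblast lineage is needed for normal bone mass in mice. The TRP family members respond to swelling, heat or lipids as well as to force. Polycystin-1 (Pkd1), a receptor-like membrane protein, pairs with the channel polycystin-2 (Pkd2) in the primary cilium, the antenna-like organelle that also senses flow and load in bone cells. TMEM63 proteins are the mammalian relatives of the plant OSCA channels opened by osmotic stress and stretch.

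Levels are in FPKM, which divides fragments by exon length and library size, so levels of different genes can be compared. Exon lengths turned the FPKM of all 10 members back into whole reads, with library totals of 16600622 to 18398911 reads. The 95% intervals given for levels (exact Poisson) and for ratios (exact Clopper-Pearson) come from these reads and cover counting error only. Changes are differences of log2(FPKM + 1), which understate the change of genes with low levels. A gene was measured when its mean over the 5 libraries was at least 1 FPKM, and the size rule asked for a difference of at least 2-fold on that scale. Of 10 members 6 were measured: Piezo1, Trpm7, Pkd1, Pkd2, Tmem63a and Tmem63b. The other 4 stayed under the limit.

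The control library differed from the 4 pressure libraries in more than pressure. Reads of 4 Y-linked genes, Uty, Kdm5d, Ddx3y and Eif2s3y, summed to 0 in each pressure library, which allows up to 3 reads per library, against 2493 in the control. An effect of pressure and a different origin of the control cells therefore cannot be told apart in any difference from the control below. Of 10 stromal markers 8 were measured, with Pdgfra, Pdgfrb and Cxcl12 among them. At least 1 FPKM was reached by 7 in the control and by 8 to 9 under pressure. Thy1 was measured only through the pressure libraries, with 1 read in the control. The 10 markers summed to 913 to 1104 FPKM under pressure and 2089 FPKM in the control. Ly6a carried most of that sum, at 622 to 828 FPKM under pressure and 1740 FPKM in the control, and without it the list summed to 275 to 291 FPKM under pressure and 348 FPKM in the control. Pdgfra lay the other way, at 63.7 to 71.5 FPKM under pressure and 44.3 FPKM in the control. Eng, Thy1, Nt5e and Lepr were also above the control at all 4 pressures, each at 2.43 FPKM or less. Thy1 had 51 to 91 reads under pressure. Ly6a, Pdgfrb, Cd44, Vcam1 and Cxcl12 were below the control at all 4 pressures. Of 10 macrophage markers Itgam, C1qa and C1qb were at 0 in all 5 libraries, and Cd68 and Cd14 were measured. The macrophage list summed to 57.3 to 63.7 FPKM under pressure and 26.0 FPKM in the control, and Cd14 alone stood at 50.3 to 55.6 FPKM under pressure and 23.6 FPKM in the control. Endothelial markers summed to 3.81 to 5.38 FPKM under pressure, against 1.34 FPKM in the control, and Emcn and Cldn5 were at 0 throughout. Plvap led that list, at 2.70 to 4.18 FPKM under pressure and 0.711 FPKM in the control. The 10 neural and Schwann markers summed to 3.78 to 4.05 FPKM under pressure and 0.860 FPKM in the control, with Nefl, Sox10 and Ngfr at 0, and the 10 erythroid markers to 6.51 to 11.5 FPKM under pressure and 5.61 FPKM in the control, with the globin genes at 0. Mbp led the neural list, at 2.37 to 3.07 FPKM under pressure and 0.385 FPKM in the control, and Tfrc the erythroid list, at 6.20 to 10.9 FPKM under pressure and 5.31 FPKM in the control. The part of other cell types in the channel levels was not tested, and in bulk RNA fewer cells of a type and less RNA per cell cannot be told apart.

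Under each pressure 5 of the 6 measured channel genes stood above the control and Tmem63a below it, but only Pkd2 at -80 mmHg passed the size rule. At -80 mmHg 1 of 6 members was higher by that rule, against 10.7% of all 12113 measured genes, and at -120, -160 and -200 mmHg 0 of 6 were, against 8.85%, 9.59% and 9.1% of all genes. No member was lower by the rule at any pressure, against 6.89%, 6.45%, 6.03% and 6.38% of all genes in the same order. At all 4 pressures together 0 of 6 members were higher and 0 lower, while 6.49% of all genes were higher and 4.46% lower. The median change of the 6 members was 0.69, 0.48, 0.57 and 0.51 (log2) at -80, -120, -160 and -200 mmHg. The median of all measured genes was 0.16, 0.14, 0.15 and 0.14 at the same pressures, so the middle of the distribution also lay above the control. Direction alone was common: 51.5% of all measured genes lay above the control at all 4 pressures by any amount and 33.3% below it. The counting interval of the ratio lay above 1 at all 4 pressures in 5 of 6 members and below 1 in 1, against 40.0% and 24.8% of the 11783 measured genes with whole reads.

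**Figure D1:**
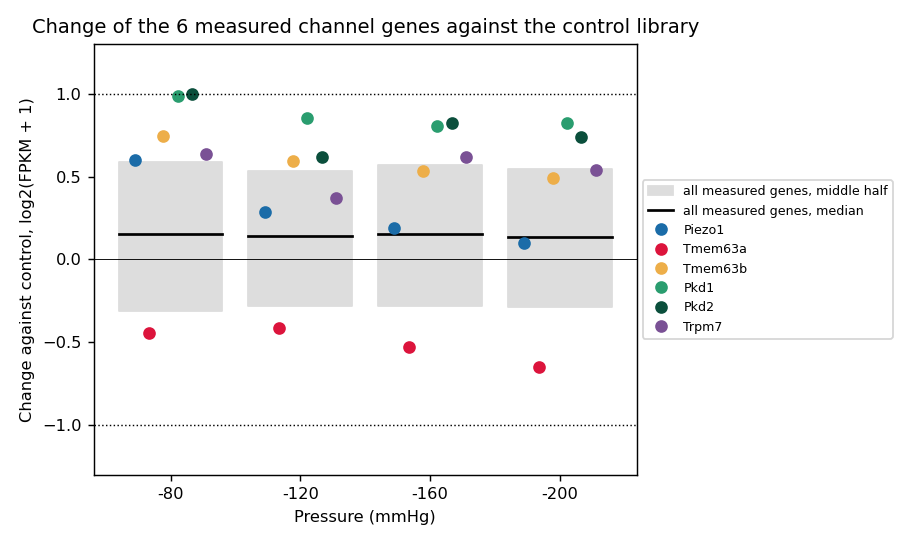
Change of each measured channel gene against the control (difference of log2(FPKM + 1)) at the 4 pressures. Black lines are the medians and grey boxes the interquartile range of all 12113 measured genes, and dotted lines mark the size rule. Pkd1 and Pkd2 lie highest and Tmem63a lowest, and only Pkd2 at -80 mmHg reaches the upper dotted line.

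Exon length moved with the change. The bin of the shortest genes, of 52 to 136 nt, stood apart at 0.66. Beyond it, among all measured genes the median of the mean change over the 4 pressures was -0.19 in the length bin of 1436 to 1601 nt, 0.17 in the bin of 4471 to 4632 nt and 0.47 in the bin of 14957 to 40491 nt. Pkd1, with 17415 nt of exons, was longer than 99.0% of the measured genes, and Trpm7, Pkd2 and Piezo1 were longer than 94.6%, 92.4% and 91.9%. The 2 TMEM63 genes were of ordinary length, 5098 nt for Tmem63b and 4492 nt for Tmem63a. The mean change of Piezo1, 0.29, was close to the 0.32 of its own length bin. The others stood off their bins: Trpm7 had 0.54 against 0.34, Pkd1 0.87 against 0.47, Pkd2 0.80 against 0.41, Tmem63b 0.59 against 0.22 and Tmem63a -0.51 against 0.17. The part of RNA quality or library preparation in this length trend was not tested.

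**Figure D2:**
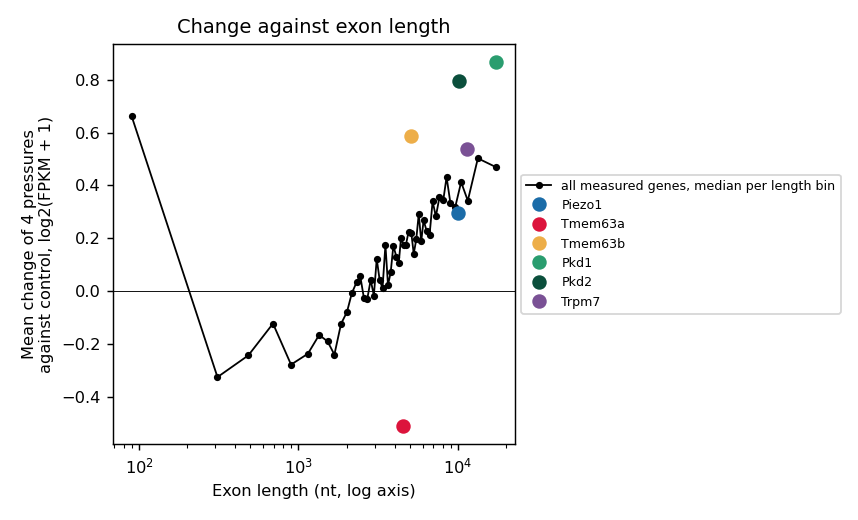
Mean change over the 4 pressures against the control (difference of log2(FPKM + 1)) plotted against exon length (nt, log axis). Black points are medians of 50 length bins of all measured genes and coloured points the 6 measured channel genes. Piezo1 lies on the trend of long genes, Pkd1, Pkd2, Tmem63b and Trpm7 above it, and Tmem63a below it.

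The sequences around the RefSeq start of 4 genes are shown because their levels carry the results below. Of the measured members Piezo1 varied most among the pressures, and Pkd1 and Pkd2 stood furthest above the control. Tmem63b was the other measured member that was lower at each stronger pressure from -80 to -200 mmHg. The sequences are RefSeq windows on GRCm38.p6, from 250 bases before to 50 after the annotated start, and 9 of the 10 members had an entry. The RefSeq start equals the outermost GENCODE start for Piezo1, but lies inside the GENCODE gene by 7 nt for Pkd2, 116 nt for Pkd1 and 687 nt for Tmem63b, so the Tmem63b window lies wholly within that gene's span. The windows are chr8:122551280-122551579 (minus strand), chr17:24549700-24549999 (plus strand), chr5:104459207-104459506 (plus strand) and chr17:45686169-45686468 (minus strand). Capitals mark matches on either strand to the GC box GGGCGG, the CCAAT box CCAAT, the AP-1 motif TGACTCA, the TEAD motif GGAATG or the TATA box TATAAA.
Piezo1: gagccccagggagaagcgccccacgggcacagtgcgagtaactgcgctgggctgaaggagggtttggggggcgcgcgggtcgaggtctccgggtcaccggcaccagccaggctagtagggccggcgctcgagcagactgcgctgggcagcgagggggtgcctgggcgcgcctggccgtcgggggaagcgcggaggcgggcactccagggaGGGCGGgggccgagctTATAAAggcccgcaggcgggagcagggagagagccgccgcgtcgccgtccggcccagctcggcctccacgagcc
Pkd1: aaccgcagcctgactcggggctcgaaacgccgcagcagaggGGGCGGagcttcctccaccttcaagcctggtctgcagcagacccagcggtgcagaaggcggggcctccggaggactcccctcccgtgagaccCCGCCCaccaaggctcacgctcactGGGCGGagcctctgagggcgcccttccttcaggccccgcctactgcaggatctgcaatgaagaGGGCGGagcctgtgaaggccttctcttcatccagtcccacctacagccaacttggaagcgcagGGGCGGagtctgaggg
Pkd2: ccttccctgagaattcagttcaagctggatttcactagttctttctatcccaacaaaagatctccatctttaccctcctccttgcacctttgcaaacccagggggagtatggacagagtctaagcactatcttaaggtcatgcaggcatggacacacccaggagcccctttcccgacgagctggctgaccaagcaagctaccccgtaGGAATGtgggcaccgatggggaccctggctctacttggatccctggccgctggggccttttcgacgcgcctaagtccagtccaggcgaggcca
Tmem63b: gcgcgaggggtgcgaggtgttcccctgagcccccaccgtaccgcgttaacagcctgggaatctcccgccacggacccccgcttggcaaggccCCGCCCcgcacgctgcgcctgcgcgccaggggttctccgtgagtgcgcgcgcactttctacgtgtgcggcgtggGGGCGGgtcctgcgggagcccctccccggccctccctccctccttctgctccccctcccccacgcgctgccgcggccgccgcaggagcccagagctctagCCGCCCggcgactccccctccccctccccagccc

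Across all 32851 RefSeq windows of this kind 35.7% held GGGCGG, 37.4% CCAAT, 5.20% TGACTCA, 14.7% GGAATG and 13.6% TATAAA. The Piezo1 window held 1 GC box, 40 bases before the start, and 1 TATA box, 24 bases before it. Pkd1 had 5 GC boxes and Tmem63b 3. Pkd2 had no GC box and 1 GGAATG, 43 bases before the start. Neither CCAAT nor TGACTCA was found in these 4 windows, which says only that those letters are absent there. The windows also differed in CpG dinucleotides, with 34 in Piezo1, 34 in Tmem63b, 18 in Pkd1 and 9 in Pkd2, against a median of 7 over all windows. The paired polycystin genes therefore share none of the 5 motifs. CpG content did not go with the level in every member: Trpv2, which was barely read, had 2 CpG in the first of its 3 windows, while Trpc1, also barely read, had 22.

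Piezo1 (ENSMUSG00000014444.17, chr8:122481698-122551329, minus strand, GRCm38) encodes the main stretch-activated calcium channel of the list. It stood at 14.0 FPKM in the control, 21.8 FPKM at -80 mmHg, 17.3 FPKM at -120 mmHg, 16.2 FPKM at -160 mmHg and 15.1 FPKM at -200 mmHg. The level was highest at the mildest pressure and lower at each stronger one, and at -200 mmHg it lay near the control. In reads, the ratio to the control was 1.55 at -80 mmHg (95% interval 1.48 to 1.64) and 1.08 at -200 mmHg (1.02 to 1.14). Relative to the median of all genes the 4 changes (log2) were 0.45, 0.14, 0.04 and -0.04, mildest pressure first. At the 2 strongest pressures Piezo1 thus lay close to the common shift.

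Among the 4 pressure libraries, which does not involve the control, Piezo1 had the widest range of the 6 measured members, 0.50 on the log2 scale. That range was larger than in 91.7% of all measured genes and larger than in 99.0% of the 200 genes nearest to it in mean level. Its reads at -200 mmHg were 0.693 times those at -80 mmHg per library total (95% interval 0.659 to 0.729). The counting interval left out 1 in all 6 pairs of pressures, as it did in 13.4% of the 1068 genes with at least as many reads. Pkd2 also left out 1 in all 6 pairs, Trpm7 in 4, and Pkd1, Tmem63a and Tmem63b in 3 each. A level falling at every step from -80 to -200 mmHg was found in 6.19% of all measured genes, one rising at every step in 5.67%, and a fall at every step with at least the range of Piezo1 in 0.38%. This order was picked out after the values were seen, and with 1 library a pressure the spread between cultures is unknown.

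GC content moved with the difference between the end pressures. The longest Piezo1 transcript has 59.0% GC, more than 93.8% of the measured genes, and the 236 genes in its GC bin had a median difference of -0.06 (-200 minus -80 mmHg), against -0.50 for Piezo1. Only 3 genes of that bin lay below Piezo1. With the GC trend removed its changes against the control were 0.66, 0.26, 0.27 and 0.19 at -80, -120, -160 and -200 mmHg, so -80 mmHg stayed highest but the steps between were no longer in order. Piezo1 also shares 2441 nt, 24.6% of its exons, with Ctu2, a tRNA-modifying enzyme gene on the opposite strand. Ctu2 had 5.09 FPKM in the control, 5.19 FPKM at -80 mmHg, 5.83 FPKM at -120 mmHg, 6.33 FPKM at -160 mmHg and 4.92 FPKM at -200 mmHg. The part of shared exons in the Piezo1 levels was not tested.

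**Figure D3:**
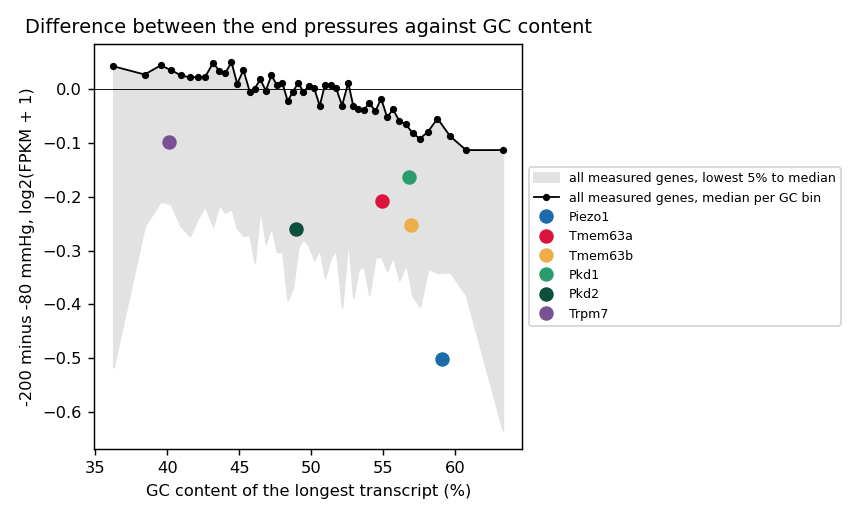
Difference between the end pressures (-200 minus -80 mmHg, log2(FPKM + 1)) plotted against the GC content of the longest transcript (%). Black points are medians of 50 GC bins of all measured genes, the grey band runs from the lowest 5% to the median, and coloured points are the 6 measured channel genes. All 6 lie below 0 and Piezo1 lies below the band.

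The genes whose 4 changes against the control were nearest to those of Piezo1 were Zcchc3, Adcy6 and Slc9a5. The measure was the Euclidean distance of the 4 log2 changes, which was 0.08, 0.12 and 0.14, and all of them share the same control library. Adcy6 stood at 11.7 FPKM in the control, 17.4 FPKM at -80 mmHg, 15.4 FPKM at -120 mmHg, 13.0 FPKM at -160 mmHg and 13.0 FPKM at -200 mmHg.

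Piezo2, the touch channel of sensory neurons and Merkel cells, was barely read, with 2 to 8 reads under pressure and 13 in the control. Its highest level, 0.0412 FPKM, was in the control. The interval of the ratio of reads left out 1 at -120 mmHg only, where the ratio was 0.171 (0.0187 to 0.753). Nearly all Piezo transcripts of these cells thus came from Piezo1: both genes together summed to 15.1 to 21.8 FPKM under pressure and 14.1 FPKM in the control.

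Pkd1 (ENSMUSG00000032855.6, chr17:24549834-24596508, plus strand) stood at 4.69 FPKM in the control, 10.3 FPKM at -80 mmHg, 9.28 FPKM at -120 mmHg, 8.94 FPKM at -160 mmHg and 9.06 FPKM at -200 mmHg. All 4 pressure libraries were close to each other and close to 2 times the control level, just short of the size rule. Its log2 change was 0.99 at -80 mmHg and 0.80 to 0.85 at the other pressures, and the ratio of reads lay between 1.91 (95% interval 1.79 to 2.03) at -160 mmHg and 2.19 (2.06 to 2.33) at -80 mmHg. Pkd1 shares 3.98% of its exons with Tsc2 on the opposite strand, which had 13.6 to 15.6 FPKM under pressure and 10.8 FPKM in the control. Among the pressures the counting interval left out 1 only in the 3 pairs with -80 mmHg.

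Pkd2 (ENSMUSG00000034462.9, chr5:104459450-104505819, plus strand) was the most abundant member in every library. It stood at 17.9 FPKM in the control, 36.9 FPKM at -80 mmHg, 28.0 FPKM at -120 mmHg, 32.6 FPKM at -160 mmHg and 30.7 FPKM at -200 mmHg. Its change of 1.0003 at -80 mmHg lay just inside the size rule and that of Pkd1 just outside it, so the call separates values that hardly differ. The ratio of reads to the control was 2.06 at -80 mmHg (95% interval 1.97 to 2.14) and 1.56 at -120 mmHg (1.49 to 1.63). The pressures were not in order, since -120 mmHg was lowest, and the range over them, 0.38, was larger than in 94.0% of the 200 genes nearest in level.

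Within a library Pkd2 stood 3.02 to 3.64 times above Pkd1 under pressure and 3.82 times in the control. The ratio was lowest at -120 mmHg, where its 95% interval of 2.88 to 3.17 overlapped that of no other library, and the interval in the control was 3.60 to 4.07. The ratio of Pkd1 to Piezo1, in contrast, was 0.335 in the control and 0.472, 0.537, 0.554 and 0.600 at -80, -120, -160 and -200 mmHg, so it was larger at each stronger pressure, with intervals that overlapped between -120 and -160 mmHg and between -160 and -200 mmHg. The ratio of Tmem63b to Piezo1 also rose at every step, from 0.563 in the control and 0.637 at -80 mmHg to 0.760 at -200 mmHg. Its intervals overlapped between neighbouring libraries, and the rise was thus not particular to Pkd1. Such ratios do not change with the scaling of a library. The genes nearest to Pkd1, the measured member with the largest mean change, were Tmem131, Spred3 and Dip2b, at distances of 0.04, 0.07 and 0.07 over the same 4 changes.

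The TMEM63 genes stood at similar levels under pressure and apart in the control. Tmem63a (ENSMUSG00000026519.16, chr1:180942344-180975112, plus strand) stood at 17.2 FPKM in the control, 12.4 FPKM at -80 mmHg, 12.7 FPKM at -120 mmHg, 11.7 FPKM at -160 mmHg and 10.6 FPKM at -200 mmHg. It was the 1 measured member below the control in all 4 pressure libraries, with a ratio of reads of 0.615 (95% interval 0.565 to 0.670) at -200 mmHg. Tmem63b (ENSMUSG00000036026.15, chr17:45660171-45686905, minus strand) stood at 7.89 FPKM in the control, 13.9 FPKM at -80 mmHg, 12.4 FPKM at -120 mmHg, 11.8 FPKM at -160 mmHg and 11.5 FPKM at -200 mmHg. All 4 pressure libraries lay above the control, with ratios of reads between 1.45 (95% interval 1.32 to 1.60) at -200 mmHg and 1.76 (1.60 to 1.93) at -80 mmHg.

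The ratio of Tmem63b to Tmem63a within a library was 0.458 in the control (95% interval 0.418 to 0.501), 1.12 at -80 mmHg (1.02 to 1.22), 0.977 at -120 mmHg, 1.02 at -160 mmHg and 1.08 at -200 mmHg. The intervals of the pressure libraries overlapped one another and none reached that of the control. The summed level of the 3 TMEM63 genes was 22.3 to 26.5 FPKM under pressure, highest at -80 mmHg and lowest at -200 mmHg. It was 25.1 FPKM in the control, and Tmem63c stood at 0.250 FPKM or less. Tmem63b was also lower at each step among the 4 pressures, but the counting interval left out 1 only in the 3 pairs with -80 mmHg, and with the GC trend removed the steps were not in order. Tmem63b shares 2.08% of its exons with Mrpl14 and 5.65% with Gm16172, and Tmem63a 3.50% with 2210411M09Rik, all on the opposite strand.

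**Figure D4:**
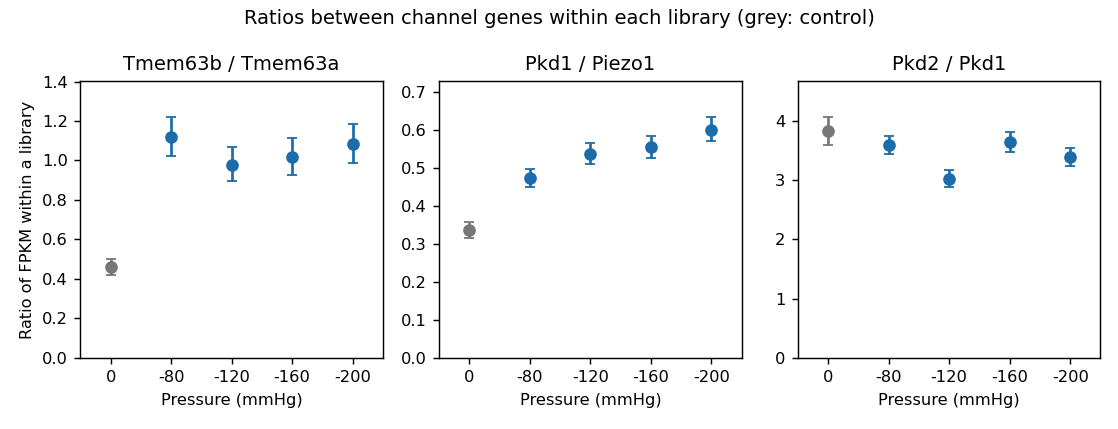
Ratios of FPKM between channel genes within each library, with 95% Clopper-Pearson intervals (counting error only), at 0, -80, -120, -160 and -200 mmHg. Grey points are the control. The ratio of Tmem63b to Tmem63a lies at 0.977 to 1.12 under pressure and 0.458 in the control.

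Trpm7 (ENSMUSG00000027365.14, chr2:126791565-126876230, minus strand), a channel fused to a kinase that carries magnesium and calcium, stood at 6.24 FPKM in the control, 10.3 FPKM at -80 mmHg, 8.34 FPKM at -120 mmHg, 10.1 FPKM at -160 mmHg and 9.50 FPKM at -200 mmHg. All 4 pressure libraries were above the control, by 1.34-fold (95% interval 1.24 to 1.44) to 1.64-fold (1.53 to 1.76) in reads, and -120 mmHg was lowest among them, as for Pkd2. With 40.1% GC its longest transcript lies at the opposite end from Piezo1, and its range over the pressures, 0.27, was larger than in 67.5% of the 200 genes nearest in level.

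Trpv4, a channel opened by swelling and shear, had 53 to 69 reads under pressure, the most at -80 mmHg, and 28 reads in the control. Its levels of 0.720 to 1.02 FPKM under pressure and 0.373 FPKM in the control gave ratios of reads between 1.93 (95% interval 1.20 to 3.17) and 2.72 (1.73 to 4.39). Trpv4 was also lower at each stronger pressure, at 1.02, 0.798, 0.793 and 0.720 FPKM from -80 to -200 mmHg. The counting interval held 1 in every pair of pressures. Trpv2, a stretch-responsive relative, had 2 to 5 reads under pressure and 1 in the control, and Trpc1, a cation channel also linked to store-operated calcium entry, 5 to 14 reads under pressure and 2 reads in the control. At this depth no change of Trpv2 was detectable. For Trpc1 the ratio of reads was 2.76 at -80 mmHg and 2.77 at -120 mmHg, with 95% intervals of 0.453 to 29.0 and 0.454 to 29.1 that hold 1. It was 7.57 at -160 mmHg (1.74 to 68.6) and 7.13 at -200 mmHg (1.64 to 64.7).

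**Figure D5:**
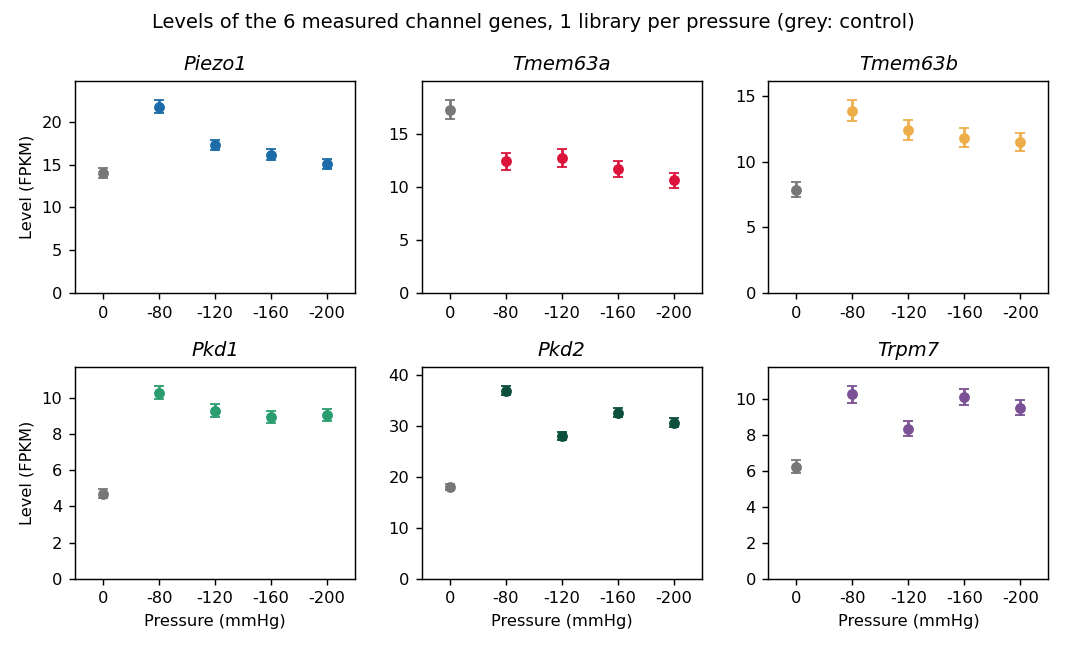
Level of each measured channel gene (FPKM) at 0, -80, -120, -160 and -200 mmHg, 1 library each, with 95% Poisson intervals from the reads (counting error only). Grey points are the control. Piezo1 and Tmem63b decline from -80 to -200 mmHg, Pkd2 and Trpm7 dip at -120 mmHg, and Tmem63a lies below its control in all 4 pressure libraries.

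The order of levels differed between the pressure libraries and the control. At -80, -160 and -200 mmHg Pkd2 was highest, then Piezo1, Tmem63b and Tmem63a, and Tmem63a and Tmem63b changed places at -120 mmHg. In all 4 pressure libraries the intervals of the 2 TMEM63 levels overlapped, although at -80 mmHg the interval of their ratio left out 1. The intervals of Pkd1 and Trpm7 overlapped at -80 and -200 mmHg and those of Tmem63a and Trpm7 at -200 mmHg, so these neighbours were not separated. In the control the order was Pkd2, Tmem63a, Piezo1, Tmem63b, Trpm7 and Pkd1, and only Pkd2 and Tmem63a overlapped. No measured member passed the size rule between any pair of pressures, against 2.26% of all genes, and none ran in 1 direction from 0 to -200 mmHg by that size, against 0.768%. All 6 measured members were lower at -200 than at -80 mmHg, by 0.10 (Trpm7) to 0.50 (Piezo1) on the log2 scale, against 52.5% of all measured genes lower by any amount and a median difference of -0.01. Long genes as a group were also lower: the length bins of Piezo1, Trpm7, Pkd1 and Pkd2 had medians of -0.08, -0.08, -0.11 and -0.11. With the length trend removed the difference was -0.46 for Piezo1, -0.01 for Trpm7, -0.07 for Pkd1 and -0.14 for Pkd2.

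Of 31 other channels that respond to force, swelling or touch 12 were measured, and the size rule was passed at every pressure by 1 higher gene, by 0 lower genes, and at none by the other 11, against 6.49%, 4.46% and 78.1% of all measured genes. The higher one was Trpc6, a cation channel activated by diacylglycerol, with 323 to 426 reads under pressure and 39 in the control. Like Thy1, it was measured only through the pressure libraries, where it is high. It stood at 0.418 FPKM in the control, 3.83 FPKM at -80 mmHg, 4.54 FPKM at -120 mmHg, 4.70 FPKM at -160 mmHg and 4.66 FPKM at -200 mmHg. The median of the list's mean changes was 0.45, against 0.15 over all measured genes. Tmem120a stood at 19.4 to 21.2 FPKM under pressure and 29.5 FPKM in the control, and Lrrc8a, the required subunit of the volume-regulated anion channel, at 2.90 to 3.36 FPKM under pressure and 3.44 FPKM in the control.

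Among 10 partners and regulators 4 were measured, with 0 higher and 1 lower at all 4 pressures, against 6.49% and 4.46% of all measured genes. Bicc1, an RNA-binding protein that regulates Pkd2 mRNA in mouse kidney, stood at 1.34 to 1.77 FPKM under pressure and 13.2 FPKM in the control, a mean change of -2.48. Mdfic, whose protein binds Piezo channels as an auxiliary subunit, passed the rule at -80 mmHg only, with 16.1 to 19.5 FPKM under pressure and 8.90 FPKM in the control. It was named after its values were seen. The list's median of 0.13 was close to the 0.15 of all genes.

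Of 18 genes of calcium entry, stores and pumps 14 were measured, with 2 higher and 0 lower at all 4 pressures and 11 past the rule at none, against 6.49%, 4.46% and 78.1% of all measured genes. Both were receptors for inositol trisphosphate that release calcium from the endoplasmic reticulum: Itpr1 had 1495 to 1675 reads under pressure (4.68 to 5.50 FPKM) and 505 reads in the control, and Itpr2 stood at 4.67 to 5.48 FPKM under pressure and 1.78 FPKM in the control. Itpr3 was the most abundant of the 3, at 11.3 to 13.5 FPKM under pressure and 11.9 FPKM in the control. The store sensor Stim1 passed the rule at -80, -120 and -160 mmHg. The list's median change was 0.33, but with the exon length trend removed 0 of its genes passed at all 4 pressures.

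In 2 further lists no measured gene passed the rule at any pressure. That held for all 17 measured genes of 21 in the list of calmodulin, calcineurin, NFAT and CaM kinases (median change 0.04) and for all 15 measured genes of 19 listed for primary cilium assembly (median 0.10), against 78.1% of all measured genes. Nfatc1, a calcium-regulated transcription factor, stood at 2.19 to 2.36 FPKM under pressure and 1.14 FPKM in the control. Kif3a, a motor subunit of ciliary transport, stood at 6.93 to 8.06 FPKM under pressure and 12.2 FPKM in the control.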

How the data were processed

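The deposited values are FPKM, scaled by the authors, with 1 column for each of 5 libraries and 0 columns of other samples. The submitters' processing notes name HISAT2, SAMtools, featureCounts 1.5.0-p3 and rn6, a build of the rat genome. The deposited IDs are from mouse Ensembl, so GENCODE M21 (GRCm38) gave symbols and exon lengths, and 54349 of 55401 IDs matched with their version. FPKM times exon length was a whole multiple of 1 read (tolerance 0.001 reads) in 54349 genes (98.1%), which gave reads and library totals. The sources used here do not give the strand setting of the counting. Reads in exons shared by overlapping genes may therefore be counted for either gene, for both or for neither.

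Changes were computed on log2(FPKM + 1) over the 12113 measured genes (mean 1 FPKM or more). The size rule was a difference of at least 1. No test was run, since each condition had 1 library. Intervals are at 95%, and the floor for 0 reads is 3 reads. Molecular identifiers are not mentioned in the labels, so reads may repeat molecules and intervals cover counting error only. Exon length and GC bins (50 each) held 11783 genes. Simulated reads for 11783 genes, 200 of them changed, checked the size rule for each pressure against the control under counting error alone. The rule called 78.0% to 100.0% of genes changed 3-fold, 86.0% to 100.0% of those changed 4-fold, and 0.250% to 0.371% of unchanged genes. The simulated reads held no spread between cultures and no length or GC trend, so these shares do not give the error rate in these libraries.

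The members, lists and rules were chosen with earlier results of these data known. The text names all 10 members, up to 4 genes of each list past the size rule at all 4 pressures by largest mean change, and for Piezo1 and the measured member with the largest mean change the 3 genes with the nearest changes. Other list genes were picked as examples after their values were seen. Some list genes are not reported here. The motifs were also chosen after the data were seen. The alternatives were 2 pseudocounts, 2 filters, 4 scalings, a 1.5-fold rule and removal of the exon length trend. The GC trend and the order over the 4 pressures were added once the data had been seen. The tools were matplotlib 3.10.9, scipy 1.17.1, pandas 2.3.3 and numpy 2.4.6 in Python 3.11.15.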

Additional observations from a re-analysis of the deposited data

How the results depend on the processing

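No paired analysis was possible because each condition has 1 library. Under the settings that can alter a gene's change (2 pseudocounts, 4 scalings and removal of the exon length or GC trend), 5 of the 6 measured members kept a mean change above 0 and Tmem63a one below 0. Relative to the median of all genes the directions also held, except for Piezo1 with the exon length trend removed (-0.02 in place of 0.15). In that setting the changes of Piezo1 against the control were 0.41, 0.15, 0.004 and -0.06 at -80, -120, -160 and -200 mmHg. At -200 mmHg Piezo1 thus lay below the control there. The number of members higher at all 4 pressures was 0 under each alternative but the 1.5-fold rule, where it was 2 (Pkd1 and Pkd2). The share of all genes past that looser rule is not given here, so the count is not weighed against it. The members' median change of 0.56 became 0.40 with a pseudocount of 5 FPKM, 0.35 with no filter, 0.41 with trimmed-mean scaling, 0.43 under quantile normalization and 0.44 with the exon length trend removed. Taken over the 4 pressures alone with no size minimum, 2 measured members were ordered (Piezo1 and Tmem63b), against 0 over the 5 libraries with the size rule. In that order without a size minimum 3 were ordered with the length trend removed (Tmem63a as well) and 0 with the GC trend removed.

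Among the other lists, counts at all 4 pressures moved as follows. The other channels had 1, and 2 with a pseudocount of 0.1 FPKM or the 1.5-fold rule, and 0 with a pseudocount of 5 FPKM or a mean of at least 5 FPKM. The partners had 1, 0 at a mean of at least 5 FPKM and 2 with the 1.5-fold rule. The calcium entry and store genes had 2, 0 with a pseudocount of 5 FPKM, a mean of at least 5 FPKM or the length trend removed, 1 with trimmed-mean scaling or quantile normalization, 3 with a pseudocount of 0.1 FPKM or the 50 most abundant genes left out, and 5 with the 1.5-fold rule. The calmodulin and calcineurin list had 0, and 5 with the 1.5-fold rule. The shares of all genes under these alternatives are not given here, so the counts are not weighed against them. The causes of the moves were not tested. Depth limits Piezo2, Trpv2 and Trpc1, with at most 14 reads in a library.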

Other observations

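Channel families were collected by symbol after the data were seen, and 18 of their 70 genes were measured (25.7%). The share was 21.9% over all genes in the table, a set that also includes antisense genes. Of 28 TRP and polycystin channel genes 6 were measured and 5 had 0 reads in all 5 libraries, and their summed level was 60.4 to 70.0 FPKM under pressure and 41.1 FPKM in the control. Besides Pkd2, Trpm7 and Trpc6, these were Mcoln1, a lysosomal calcium channel (11.1 to 12.5 FPKM under pressure and 9.57 FPKM in the control), Trpm4 and Pkd2l2. Of 14 two-pore potassium channel genes 1 was measured, Kcnk2, which encodes the stretch-sensitive channel TREK-1, at 1.43 to 1.71 FPKM under pressure and 0.792 FPKM in the control. Of 8 TMC genes 1 was measured, Tmc6, and of 10 anoctamins 3, of which Ano8 stood at 13.9 to 16.7 FPKM under pressure and 9.45 FPKM in the control. The 5 LRRC8 genes of the volume-regulated anion channel summed to 9.76 to 10.3 FPKM under pressure and 7.72 FPKM in the control. Across these families and the Piezo and TMEM63 genes, only Trpc6 was past the size rule at all 4 pressures among the measured genes. Trpc6 itself was measured only through the pressure libraries.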
